A study of Mus musculus with 6 samples.

Results

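The genes described are 9 genes of the epidermal growth factor (EGF) and fibroblast growth factor (FGF) receptor systems: the 4 ERBB receptors Egfr, Erbb2, Erbb3 and Erbb4, the 3 FGF receptors Fgfr1, Fgfr2 and Fgfr3, and the 2 ERBB ligands Hbegf and Areg. They were taken by symbol from the 54446 genes listed in the data, by a rule that uses no measured value, although earlier results of these data were known when they were picked. The study compared 2 libraries of GL261, an established mouse glioma line grown in a differentiation medium with fetal calf serum (FCS), with 4 libraries of GL261-GSCs, cultures derived from that line, labelled glioblastoma stem cells and grown in defined stem cell medium. Both groups are thus 1 cell line in 2 media, not tumours, and neither carries an allele or other treatment named in the labels. Cells and neurospheres were dissociated and captured in droplets for 5' single-cell RNA sequencing, where each captured RNA molecule is counted once by its unique molecular identifier (UMI). The labels do not say whether cells or nuclei were loaded, whether the defined medium held EGF or FGF, or whether replicates came from separate cultures, so p-values measure the spread between these libraries only, which may be technical.

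ERBB receptors are tyrosine kinases of the cell surface that act in pairs. Egfr binds ligands such as HB-EGF and amphiregulin, Erbb2 has no ligand of its own and pairs with the others, Erbb3 has little kinase activity and binds neuregulins, and Erbb4 binds neuregulins and some EGF-like ligands. FGF receptors bind FGFs together with heparan sulfate, and both families feed the RAS and ERK cascade. EGFR gain is a known lesion of human glioblastoma, and EGF and FGF2 are the factors usually given to neural stem cells in culture.

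The 6 libraries held 80899005 to 121309232 UMIs and 4264 to 7275 called cells each, 31731 cells in all, of which 9810 were GL261 and 21921 GL261-GSCs. The median per cell ran from 6670 UMIs in GL261-GSCs replicate 4 to 15477 in GL261 replicate 1. Called cells of any pair of libraries shared 32 to 59 barcodes, where 26.1 to 57.9 were expected by chance. Levels are given as CPM, the UMIs of a gene after each library is scaled to a common total, and differences as log2 fold changes of GL261-GSCs over GL261. Of 5 markers of the labelled type, Olig2 rose from 0.918 CPM (62 UMIs) and 0.0166 CPM (1 UMI) in GL261 replicates 1 and 2 to 557 ± 185 CPM (SD, n = 4) in GL261-GSCs. Fabp7 rose from 9 UMIs in GL261 to 17191 in GL261-GSCs, Sox2 also rose, and Prom1 had 11 UMIs. Nes, the most abundant of the 5 in GL261, fell from 1223.5 ± 58.3 to 427.2 ± 118 CPM (SD, n = 2 and 4). The list summed to 1250 to 1332.3 CPM in GL261 and 1020.5 to 1344.2 CPM in GL261-GSCs, so that its sum did not rise.

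Markers of other cell types were mixed. Of 5 immune markers, Ptprc had 6 UMIs in all cells and Aif1 9, Cx3cr1 had 14 in GL261 and 3 in GL261-GSCs, Itgam 7 and 1, and Cd68, the only one tested, was read at 7.45 ± 0.583 and 16.1 ± 6.10 CPM (SD, n = 2 and 4; not called), so that the list summed to 7.25 to 8.09 CPM in GL261 and 8.97 to 23.0 CPM in GL261-GSCs. Of 4 neuron markers, Rbfox3 had no UMI and Snap25 7, while Syt1 rose from 1 and 2 UMIs in GL261 to 76, 899, 4122 and 2845 in GL261-GSCs, and Tubb3 lay at 88.6 ± 5.11 and 19.8 ± 19.9 CPM (not called). That list summed to 85.0 to 92.3 CPM in GL261 and 37.2 to 82.6 CPM in GL261-GSCs. Of 5 astrocyte markers, Aqp4 had no UMI and Slc1a2 18, Slc1a3 rose from 11 and 0 UMIs to 4033, 6213, 5448 and 3059, and Gfap and Aldh1l1 fell, from 165 to 3 UMIs and from 872 to 2. The list summed to 7.85 to 8.51 CPM in GL261 and 61.2 to 85.8 CPM in GL261-GSCs. Endothelial markers summed to at most 1.61 CPM in any library, with Cldn5 at 0, and Cdh5 fell from 49 UMIs to 1. Fibroblast and pericyte markers summed to 5.05 to 5.06 CPM in GL261 and 0.317 to 0.687 CPM in GL261-GSCs, where Pdgfrb fell from 638 to 30 UMIs, and Rgs5 was at 0 in GL261. Of 5 markers of the oligodendrocyte lineage 2 rose and 1 fell, with sums of 673.5 to 830.3 CPM in GL261 and 649.1 to 888.7 CPM in GL261-GSCs. The part of these markers in the members' differences was not tested.

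RefSeq start regions are shown for 3 receptor genes that the data set apart: Fgfr3, which differed most between the groups, Erbb2, which differed less, and Egfr, which was almost unread in both. The sequences are RefSeq regions on GRCm38.p6, 250 bases before to 50 after the start, all on the + strand. They lie at chr5:33721474-33721773 and chr5:33722056-33722355 for the starts of Fgfr3, chr11:98412234-98412533 for Erbb2 and chr11:16751953-16752252 for Egfr. The starts of Fgfr3 and Egfr are also starts of a GENCODE transcript, and that of Erbb2 is not, although the GENCODE gene begins at 98412470, within its region. Capitals mark the GC box GGGCGG on either strand.
Fgfr3, upstream start: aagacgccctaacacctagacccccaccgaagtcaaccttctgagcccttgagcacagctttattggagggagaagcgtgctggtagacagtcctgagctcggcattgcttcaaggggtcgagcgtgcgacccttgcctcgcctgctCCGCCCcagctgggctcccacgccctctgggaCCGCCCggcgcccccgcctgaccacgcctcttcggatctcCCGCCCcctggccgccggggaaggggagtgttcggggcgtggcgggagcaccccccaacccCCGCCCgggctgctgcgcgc
Fgfr3, downstream start: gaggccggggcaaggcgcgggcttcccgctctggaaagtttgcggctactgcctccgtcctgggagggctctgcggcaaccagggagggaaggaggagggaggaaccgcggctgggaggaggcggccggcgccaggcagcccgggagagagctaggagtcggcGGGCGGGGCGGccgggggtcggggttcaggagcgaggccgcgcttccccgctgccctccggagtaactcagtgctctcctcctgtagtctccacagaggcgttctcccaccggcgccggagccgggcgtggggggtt
Erbb2: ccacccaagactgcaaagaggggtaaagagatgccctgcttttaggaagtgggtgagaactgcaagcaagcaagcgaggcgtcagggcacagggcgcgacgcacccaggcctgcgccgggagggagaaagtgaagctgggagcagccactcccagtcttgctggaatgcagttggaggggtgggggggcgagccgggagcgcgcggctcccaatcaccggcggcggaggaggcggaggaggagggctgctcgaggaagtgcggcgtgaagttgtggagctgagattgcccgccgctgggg
Egfr: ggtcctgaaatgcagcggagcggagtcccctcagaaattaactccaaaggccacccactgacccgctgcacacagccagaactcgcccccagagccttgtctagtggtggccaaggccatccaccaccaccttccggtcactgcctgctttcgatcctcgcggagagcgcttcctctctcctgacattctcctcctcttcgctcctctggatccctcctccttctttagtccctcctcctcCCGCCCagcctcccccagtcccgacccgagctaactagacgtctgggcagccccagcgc

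CG dinucleotides numbered 26 and 30 at the starts of Fgfr3, 21 at Erbb2 and 15 at Egfr, against a median of 7 over 32851 regions of this length, of which 83.1%, 88.3%, 75.2% and 65.4% in turn held fewer. The GC box occurred 4 times and 2 times at the starts of Fgfr3, once at Egfr and not at Erbb2, and 35.7% of all such regions held it. The AP-1 motif TGANTCA, on either strand, was in 7.81% of all regions and in none of those of the 6 members with an entry. The TATA box TATAAA, on either strand, was in 13.6% of all regions and, of these 6 members, at Areg. A match describes the letters only.

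Fgfr1 and Fgfr3 moved in opposite directions between the cultures, Hbegf and Erbb2 fell, and Erbb3 stayed readable in every library. Of the 9 members, 5 had enough UMIs to be tested and 4 were called at an adjusted p under 0.05, 1 higher and 3 lower in GL261-GSCs. Calls among the 18439 genes that could be tested came to 29.9%, split into 15.8% higher and 14.1% lower, around a median change of 0.04 on the log2 scale. All 5 tested members had libraries that did not overlap between the groups, as did 56.7% of all genes tested. The other 4 members had 18 or fewer UMIs in all cells together.

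**Figure D1:**
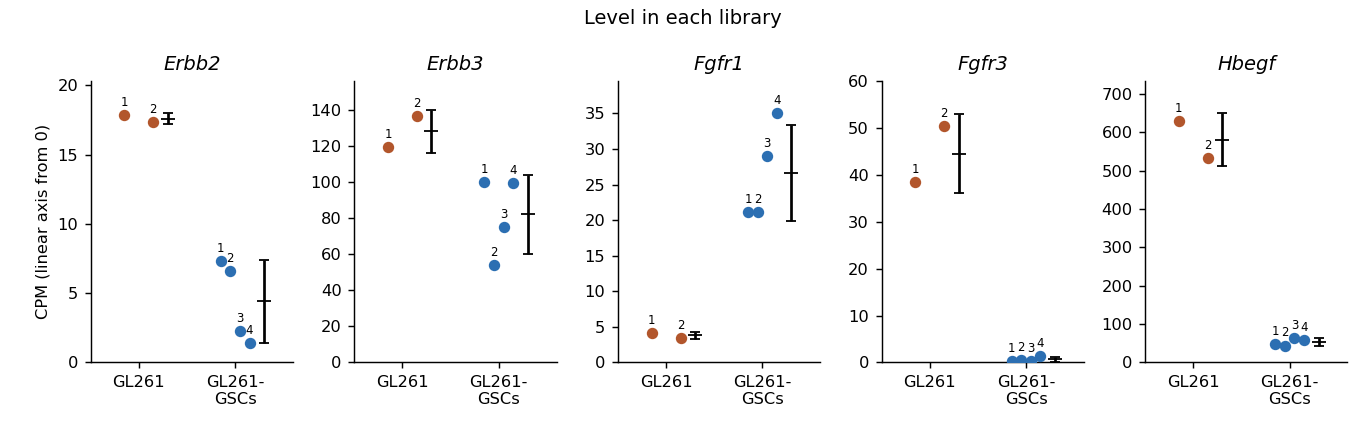
CPM of the 5 tested members in each library, on linear axes from 0 with a scale of its own for each gene. Numbered points are replicates of GL261 (orange) and GL261-GSCs (blue), and the bar beside them is the mean ± SD. Fgfr1 is higher and the other genes lower in GL261-GSCs, without overlap, and Erbb2 splits into replicates 1 and 2 (7.35 and 6.59 CPM) and replicates 3 and 4 (2.28 and 1.43 CPM).

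Hbegf (chr18:36504927-36515805, GRCm38, - strand) encodes HB-EGF, a membrane-anchored ligand of Egfr and Erbb4. It had 42497 and 32147 UMIs in GL261 replicates 1 and 2, against 3101, 3194, 5119 and 2135 in GL261-GSCs replicates 1 to 4. Its level was 629 and 532 CPM in GL261 and 47.0, 44.1, 64.0 and 58.6 CPM in GL261-GSCs. The lowest GL261 library thus stood far above the highest GL261-GSCs library. The means were 581 ± 68.5 CPM (SD, n = 2) and 53.4 ± 9.45 CPM (SD, n = 4), a 10.9-fold difference. By edgeR's quasi-likelihood test with Benjamini-Hochberg adjustment, its log2 change was -3.44 (SE 0.19, adjusted p = 9.58e-05).

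In unthinned cells the difference showed both in how many cells had a UMI and in how many UMIs a cell had, which are readings of the same counts. In GL261 the median cell held 5 and 4 Hbegf UMIs in replicates 1 and 2, with maxima of 116 and 79. In GL261-GSCs the median was 0 in every library and the maximum was 7 to 12. Cells with 5 or more UMIs made up 53.7% and 46.0% of the GL261 libraries and 0.426% to 1.24% of the GL261-GSCs libraries.

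Areg encodes amphiregulin, another Egfr ligand. It had 1 UMI in GL261 and 1 in GL261-GSCs, both at the limit of counting, so that no fold is given.

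Among the ERBB receptors, Egfr, the receptor of both ligands, had 1 UMI in the 136853245 UMIs of GL261 cells and 0 in the 248327490 UMIs of GL261-GSCs cells. A count of 0 allows up to 0.0121 CPM in GL261-GSCs, taken as 3 UMIs over the group, and 1 UMI has an exact 95% Poisson interval of 0.000185 to 0.0407 CPM in GL261. Over every barcode, called or not, Egfr had 4 UMIs in GL261 while GL261-GSCs had 0. The gene lies at chr11:16752203-16918158 (+ strand), and no gene on its strand overlaps it.

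Erbb2 (chr11:98412470-98437716, + strand) was read at 17.9 and 17.3 CPM in GL261 and at 7.35, 6.59, 2.28 and 1.43 CPM in GL261-GSCs. Its UMIs numbered 1207 and 1047 in GL261, against 485, 478, 182 and 52 in GL261-GSCs. The GL261 libraries were nearly equal, while GL261-GSCs replicates 3 and 4 lay well below replicates 1 and 2. The means were 17.6 ± 0.378 CPM (SD, n = 2) and 4.41 ± 2.99 CPM (SD, n = 4), 3.99-fold apart, and the log2 change by edgeR was -1.99 (SE 0.61, adjusted p = 0.0489). That call was lost without GL261 replicate 1 (edgeR adjusted p = 0.184), GL261 replicate 2 (0.187), GL261-GSCs replicate 2 (0.0582) or GL261-GSCs replicate 3 (0.0974), and with library size scaling alone (0.0561). The log2 fold change was -1.33 with GL261-GSCs replicates 1 and 2 only (edgeR adjusted p = 0.00219) and -3.18 with replicates 3 and 4 only (2.29e-05). These fits called 6985 of 17540 and 9881 of 17995 genes. They were added after seeing the data and follow the split that Erbb2 itself shows. Their p-values thus leave out the spread between these pairs of replicates and do not strengthen the call.

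Erbb3 (chr10:128567523-128589652, - strand) was read at 120 and 137 CPM in GL261. In GL261-GSCs it lay at 99.9, 54.1, 75.1 and 99.4 CPM. The groups did not overlap, yet replicates 1 and 4 of GL261-GSCs came close to the lower GL261 library. The means of 128 ± 12.0 CPM (SD, n = 2) and 82.1 ± 22.0 CPM (SD, n = 4) gave a log2 fold change of -0.64 (SE 0.25), which was not called by edgeR (adjusted p = 0.0996). With GL261-GSCs replicates 3 and 4 only, Erbb3 was called lower, at -0.53 (edgeR adjusted p = 0.0231), in a fit that called 9881 of 17995 genes. With replicates 1 and 2 only, Erbb3 was not called, although its change was larger (-0.73, edgeR adjusted p = 0.11). That fit called 6985 of 17540 genes.

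Erbb4 had no UMI in GL261 and 1, 0, 6 and 11 UMIs in GL261-GSCs replicates 1 to 4. That is 0.0725 CPM over the GL261-GSCs group, with an exact Poisson interval of 0.0430 to 0.115 CPM, and at least 3.31-fold higher than the 3 UMIs over the group that a count of 0 allows in GL261. Of the 18 UMIs, 17 came from replicates 3 and 4, and without replicate 4 the bound was 1.49-fold. The gene was too low for the main test, and 8 annotated genes overlap it on its strand, so that its few UMIs are of uncertain source.

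Among the FGF receptors, Fgfr3 (chr5:33721674-33737068, + strand) differed most. It had 2605 and 3049 UMIs in GL261 and 17, 37, 27 and 52 in GL261-GSCs. Its level was 38.6 and 50.5 CPM in GL261, against 0.258, 0.510, 0.338 and 1.43 CPM in GL261-GSCs. Every GL261-GSCs library was far below both GL261 libraries, and replicate 4 was the highest of the 4. The means were 44.5 ± 8.43 CPM (SD, n = 2) and 0.633 ± 0.540 CPM (SD, n = 4), 70.3-fold apart, or 121-fold without GL261-GSCs replicate 4. The log2 fold change was -6.22 (SE 0.63, edgeR adjusted p = 0.000769), and -6.88 without that replicate (0.000294).

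Fgfr1 (chr8:25513654-25575718, + strand) moved the other way. It had 279 and 208 UMIs in GL261 and 1397, 1533, 2319 and 1276 in GL261-GSCs. These gave 4.13 and 3.44 CPM in GL261 and 21.2, 21.1, 29.0 and 35.0 CPM in GL261-GSCs. All GL261-GSCs libraries were above both GL261 libraries, with replicates 3 and 4 highest. The means of 3.79 ± 0.486 CPM (SD, n = 2) and 26.6 ± 6.74 CPM (SD, n = 4) were 7.02-fold apart, at a log2 fold change of 2.81 (SE 0.29, edgeR adjusted p = 0.000819).

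Fgfr2 had no UMI in GL261 and 2 UMIs in GL261-GSCs, both in replicate 1, and no fold is given. Its annotated model (chr7:130162451-133123350, - strand) spans 36 other genes on the same strand, so that even these UMIs are uncertain.

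Hbegf, Fgfr3 and Fgfr1 were called in each of the 18 alternatives, whose edgeR, DESeq2 or limma adjusted p reached at most 0.00171, 0.00938 and 0.0174. The alternatives refit the same libraries, or fewer of them, and called 1817 to 9881 genes each. How many of all genes were called in every alternative was not counted. Values that differ with the genome region or with depth stand beside these results. Over the tested genes of the same chromosome, the median log2 fold change was -0.47 for Hbegf, -0.28 for Erbb2, 0.27 for Fgfr3 and 0.01 for Fgfr1. Over genes within 1 Mb it was 0.24, -0.27, 0.17 and 0.51. The part of these regional values in the members' differences was not tested.

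Each cell was also thinned to 2000 UMIs, to give shares of cells at equal depth. At this depth the share of a gene with few UMIs largely follows from its CPM. For such genes it is no check apart from the levels above. After thinning, Hbegf had a UMI in 53.3% and 50.2% of GL261 cells and in 9.03%, 8.06%, 11.8% and 10.99% of GL261-GSCs cells. Free RNA in the droplets, estimated from near-empty barcodes, could give 1.69% to 2.48% in GL261 and 0.240% to 1.03% in GL261-GSCs, below each measured share. Without thinning, the Hbegf shares were 88.2% and 87.4% against 32.1% to 44.3%, with free RNA estimates of 12.9% and 8.32% against 1.14% to 2.97%.

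Fgfr1 had a UMI in 0.728% and 0.560% of thinned GL261 cells and in 4.64%, 4.68%, 6.36% and 8.33% of GL261-GSCs cells. Fgfr3 showed the reverse, with 7.13% and 8.06% in GL261, against 0.188%, 0.136%, 0.124% and 0.421% in GL261-GSCs. Erbb2 was found in 3.47% and 3.26% of GL261 cells, and in 1.48%, 1.48%, 0.536% and 0.199% of GL261-GSCs cells. None of these 3 genes overlapped between the groups, an outcome not counted over all genes for this measure. By CPM, 56.7% of all genes tested did not overlap.

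Erbb3 did overlap at this depth, with 19.3% and 21.2% of thinned cells in GL261, against 19.1%, 10.99%, 15.1% and 20.5% in GL261-GSCs. The mean shares of Erbb3 were 20.3% ± 1.31 (SD, n = 2) and 16.4% ± 4.30 (SD, n = 4), with a 2-sided exact permutation p of 0.267. The overlap depended on the depth, cells and libraries used. Thinned to 1000 UMIs the same cells had Erbb3 means of 11.7% and 8.83% without overlap (exact p = 0.133), but over every barcode of at least 1000 UMIs, thinned alike, the means were 9.84% and 7.85% with overlap (exact p = 0.267). At 5000 UMIs, which also left out shallower cells, they were 38.5% and 29.3% without overlap (exact p = 0.133), and the unthinned shares overlapped. At 2000 UMIs the groups did not overlap without GL261 replicate 1 or without GL261-GSCs replicate 4. For Hbegf, Fgfr1, Fgfr3 and Erbb2 the exact p was 0.133, the smallest this design allows 2-sided, and 0.30 after adjustment over the 9 members, so no share could pass 0.05. The estimates from free RNA, in GL261 and then in GL261-GSCs, were 0.0166% to 0.0234% and 0.132% to 0.660% for Fgfr1, and 0.263% to 0.330% and 0.00305% to 0.0586% for Fgfr3. They were 0.0771% to 0.0943% and 0.0254% to 0.0438% for Erbb2, and 0.551% to 0.627% and 0.313% to 1.92% for Erbb3. For these 4 genes the share in each library was above that library's own estimate. Egfr, Areg and Fgfr2 had no UMI in any thinned cell, where a count of 0 allows 0.0412% to 0.0704% of cells per library. That limits the cells with a captured UMI at this depth, not the cells that express the gene. Intervals and limits cover counting error only.

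**Figure D2:**
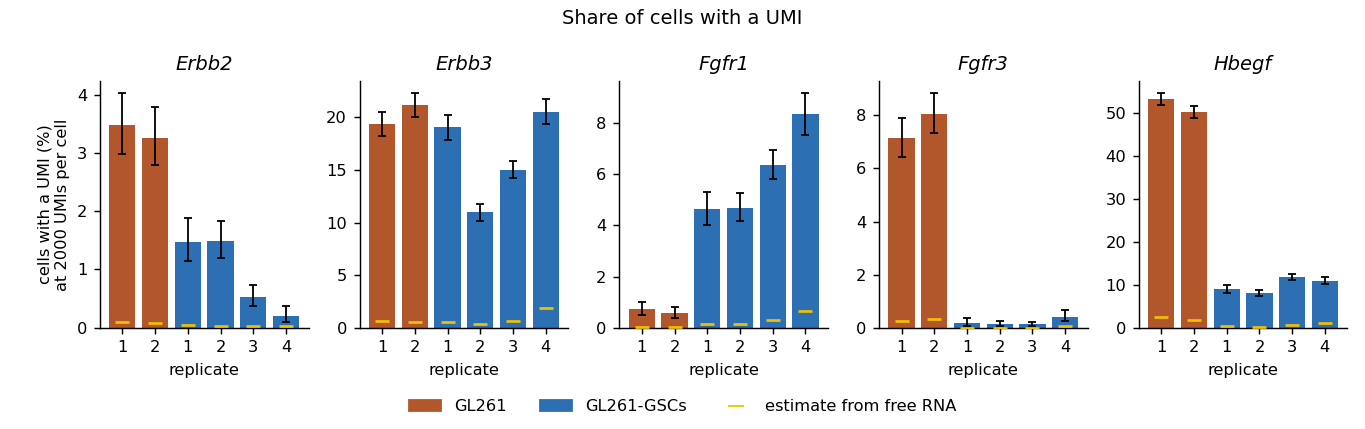
Percent of called cells with at least 1 UMI after thinning to 2000 UMIs per cell, by library and replicate, with exact binomial 95% intervals. Yellow marks give the share expected from free RNA. The GL261 bars (orange) of Hbegf stand at 53.3% and 50.2% against 8.06% to 11.8% in GL261-GSCs (blue), Fgfr1 and Fgfr3 show opposite patterns, and the groups overlap for Erbb3 in the cells and at the depth plotted.

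Receptors that act as pairs were also read together. Erbb2 and Erbb3, which form a signalling pair, had UMIs in the same cell in 14.7% and 12.5% of unthinned GL261 cells, where the product of their shares was 12.5% and 11.1%. In GL261-GSCs both were present in 7.79%, 3.58%, 1.28% and 0.754% of cells, and the product was 6.86%, 2.96%, 1.05% and 0.471%. Fgfr1 and Fgfr3 were found together in 1.46% and 1.74% of GL261 cells and in 0.0687% to 0.332% of GL261-GSCs cells, beside products of 1.602% and 1.32%, and of 0.0926% to 0.247%. Unthinned cells differ in depth, and deeper cells hold more of every gene, so these shares describe co-occurrence and were not tested.

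By the root mean square difference of mean-centred log2 CPM over the 6 libraries, among 5423 genes of at least 5 average log2 CPM, the genes nearest to Fgfr1 were Bahcc1 (0.05), Dhcr7 (0.0559) and Cyp51 (0.134). Nearest to Hbegf were Anxa2 (0.171), Cdh2 (0.214) and Gadd45b (0.226). Erbb2 lay nearest to Nacc2 (0.31), Gas7 (0.366) and Hmga2 (0.381). The nearest genes of Fgfr3 were farther away, Vgll3 at 0.725, Cdh6 at 0.82 and Smad7 at 0.83.

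The members were next compared between cells with high and low counts of cell cycle genes in the same library. Cells were called G2/M-high when their UMIs of 22 G2/M genes reached the top 20% of their library, and cycle-low when their UMIs of G2/M and of 20 S genes were at or below the median. Both counts were taken after thinning each cell to 2000 UMIs, while the levels given below use all UMIs of the cells. These are ranges of a score cut within each library, and cycle-low cells were not shown to be out of the cycle. No member is in either list. Fgfr1 and Erbb3 were lower in G2/M-high cells, and Erbb2, Fgfr3 and Hbegf were not called. Calls came to 45.6% of the 15591 genes in that fit, 19.5% higher and 26.1% lower, so 2 of 5 members is near the background. Before thinning, G2/M-high cells were deeper, with a median of 7672 to 16914 UMIs against 6487 to 13956 in cycle-low cells. After thinning, 280 to 549 cells per library lay within 1 UMI of the G2/M threshold.

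Fgfr1 was lower in G2/M-high cells of 6 of 6 libraries, from 4.78 to 2.59 CPM and from 3.36 to 3.10 CPM in GL261. In GL261-GSCs replicates 1 to 4 it went from 20.8 to 19.1, 24.3 to 17.7, 36.7 to 24.5 and 43.3 to 23.7 CPM. The log2 fold change over the 6 libraries was -0.51 (SE 0.10, edgeR adjusted p = 0.00223).

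Erbb3 was lower in G2/M-high cells of all 4 GL261-GSCs libraries, from 107 to 85.0, 59.9 to 46.0, 93.6 to 56.2 and 124 to 71.4 CPM. In GL261 it went from 118 to 131 CPM in replicate 1 and from 152 to 149 CPM in replicate 2. Over all libraries the log2 fold change was -0.35 (SE 0.11, edgeR adjusted p = 0.0252). That call was lost without GL261-GSCs replicate 1 (edgeR adjusted p = 0.0518), replicate 2 (0.0756), replicate 3 (0.092) or replicate 4 (0.0949), and with the top 10% of cells as G2/M-high (0.0645).

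Hbegf went down in GL261, from 632 to 487 CPM and from 529 to 396 CPM. In GL261-GSCs it went from 42.9 to 54.6, 38.5 to 45.9, 60.7 to 69.7 and 62.9 to 60.3 CPM, up in 3 of 4 libraries. Over all libraries the value was -0.03 (edgeR adjusted p = 0.852).

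Whether the class difference itself differed between the groups was tested by an interaction, for which edgeR called 36 of 15591 genes (0.231%, with 0.122% higher and 0.109% lower) and none of the 5 tested members. Without adjustment 1889 genes, among them Hbegf and Erbb3, were under 0.05. The log2 fold change of G2/M-high over cycle-low cells for Hbegf was -0.40 in GL261 and 0.19 in GL261-GSCs, a gap of 0.58 (SE 0.11, edgeR adjusted p = 0.0883). That of Erbb3 was 0.06 and -0.56, a gap of -0.62 (SE 0.14, edgeR adjusted p = 0.121). Both were called without GL261-GSCs replicate 4, at an edgeR adjusted p of 0.0126 for Hbegf and 0.0489 for Erbb3. That fit called 145 of 15348 genes. Both were also called with no filter on low counts, at 0.000178 and 1.3e-05, where 446 of 30749 genes were called. In the other 7 alternatives neither was called, and the edgeR adjusted p reached 0.714 for Hbegf and 0.785 for Erbb3.

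**Figure D3:**
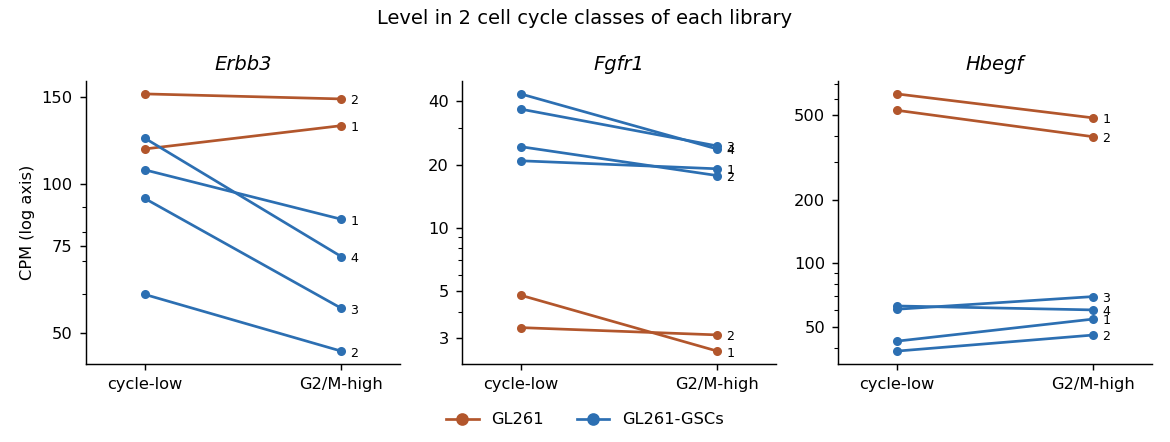
CPM on log axes of Erbb3, Fgfr1 and Hbegf in cycle-low and G2/M-high cells, with a line for each library and its replicate number at the right. Fgfr1 is lower in G2/M-high cells in 6 of 6 libraries, Erbb3 in all 4 GL261-GSCs libraries, and Hbegf is lower in both GL261 libraries (orange) and higher in 3 of the 4 GL261-GSCs libraries (blue).

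Around the members, 68 other genes of these pathways were listed by role. Of them 48 were tested, 13 were higher and 11 lower, with a median log2 fold change of 0.02 against 0.04 over all genes, so that 24 (50%) were called, beside 29.9% of all genes.

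Of the 9 other ERBB ligands, 5 were tested and 2 fell. Btc, the ligand betacellulin, had 104 and 48 UMIs in GL261 and 15, 0, 0 and 0 in GL261-GSCs (log2 fold change -4.26, edgeR adjusted p = 0.0421). Without GL261-GSCs replicate 1 no UMI was left in that group, GL261 was at least 67.7-fold higher against 3 UMIs over the group, and the edgeR adjusted p was 0.00374. Tgfa, transforming growth factor alpha, fell from 62.9 ± 5.99 to 44.0 ± 5.05 CPM (SD, n = 2 and 4), at -0.52 (edgeR adjusted p = 0.0372). Without GL261 replicate 1 the edgeR adjusted p was 0.216 for Btc and 0.123 for Tgfa, and without GL261 replicate 2 it was 0.131 and 0.275. It was also lost for Btc without GL261-GSCs replicate 2 (0.0717), 3 (0.0792) or 4 (0.0655), and for Tgfa without replicate 1 (0.0522), 2 (0.0691) or 3 (0.0898).

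The ligand-shedding list held the proteases and their partners that release membrane-bound ligands such as HB-EGF. All 4 genes were tested and 2 fell. Rhbdf1, which encodes the iRhom1 partner of Adam17, went from 122 ± 4.13 to 15.4 ± 1.54 CPM (SD, n = 2 and 4), at a log2 fold change of -2.98 (SE 0.13, edgeR adjusted p = 4.38e-05). Adam10, a sheddase, went from 219.6 ± 20.1 to 81.7 ± 10.8 CPM, at -1.43 (SE 0.15, edgeR adjusted p = 0.000951). Adam17 and Rhbdf2 were not called, at 0.13 and 0.34.

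Of 18 secreted FGF ligands 9 were tested, with 2 higher and 1 lower. Fgf2, basic FGF, had 1004 and 966 UMIs in GL261 and 40, 80, 46 and 10 in GL261-GSCs. It fell from 15.4 ± 0.800 to 0.640 ± 0.343 CPM (SD, n = 2 and 4), at a log2 fold change of -4.56 (SE 0.45, edgeR adjusted p = 0.000732). Fgf15 rose from 0.480 ± 0.0711 to 2.88 ± 1.26 CPM, at 2.58 (edgeR adjusted p = 0.0107), a call lost without GL261 replicate 1 (0.101) or 2 (0.0863).

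Fgf23 had 3 and 0 UMIs in GL261 and 46, 54, 51 and 22 in GL261-GSCs, a ratio of 31.8 with a counting interval of 10.7 to 156 (edgeR adjusted p = 0.00391). Without GL261 replicate 2 the ratio was 16.5 (5.55 to 80.8), and without GL261 replicate 1, which held all 3 UMIs, it was at least 15.3-fold higher against 3 UMIs over the group. Fgf21 had no UMI in GL261 and 11, 125, 8 and 6 in GL261-GSCs, at least 27.6-fold higher against a limit of 3 UMIs over the GL261 group, and was not called by edgeR (adjusted p = 0.0754). Most of its UMIs came from GL261-GSCs replicate 2, without which the bound was 6.4. The 5 further FGF ligands not called were Fgf1, whose groups overlapped, and Fgf7, Fgf18, Fgf20 and Fgf22, whose groups did not (edgeR adjusted p from 0.106 to 0.401 over the 5).

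Fgfrl1, an FGF receptor-like protein without a kinase domain, was the only tested gene of the 4 other receptors and co-receptors and rose from 52.3 ± 4.08 to 127.6 ± 18.9 CPM (SD, n = 2 and 4), at a log2 fold change of 1.29 (edgeR adjusted p = 0.00261). Of the 4 intracellular FGF homologous factors, Fgf11 was tested and not called.

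Of the 9 genes listed as receptor adaptors, all were tested, 2 rose and 2 fell. Gab1, a docking protein, rose at a log2 fold change of 2.08 (edgeR adjusted p = 0.000478), and Sos1, a RAS exchange factor, at 0.77 (edgeR adjusted p = 0.012). Shc1 fell at -0.81 (edgeR adjusted p = 0.011) and Grb2 at -0.43 (edgeR adjusted p = 0.0259). Without GL261 replicate 1 the edgeR adjusted p was 0.116 for Sos1, 0.0552 for Shc1 and 0.204 for Grb2, and without GL261 replicate 2 it was 0.104, 0.126 and 0.157. Grb2 was also lost without GL261-GSCs replicate 2 (0.063) or 3 (0.0685).

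Of the 8 ERBB inhibitors, all were tested, 2 rose and 2 fell. Lrig1, a membrane protein that promotes loss of ERBB receptors, rose from 0.998 ± 0.452 to 9.50 ± 2.21 CPM (SD, n = 2 and 4), at 3.24 (SE 0.41, edgeR adjusted p = 0.00187). Lrig3 rose at 0.53 (edgeR adjusted p = 0.0341), Errfi1, which encodes an inhibitor of the ERBB kinase, fell at -1.36 (0.0396), and Socs5 fell at -1.001 (0.00224). Without GL261 replicate 1 the edgeR adjusted p was 0.162 for Lrig3 and 0.25 for Errfi1, and without GL261 replicate 2 it was 0.274 and 0.104. It was also lost for Lrig3 without GL261-GSCs replicate 2 (0.0549) or 3 (0.0785) and for Errfi1 without replicate 3 (0.0829) or 4 (0.0529).

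The list of ERK feedback genes and outputs held 12 genes, of which 11 were tested, 6 rose and 2 fell. Etv1 and Etv4 encode ETS transcription factors. Etv1 rose from 3.01 ± 0.879 to 49.7 ± 13.3 CPM (SD, n = 2 and 4), at a log2 fold change of 4.04 (SE 0.35, edgeR adjusted p = 0.000429). Etv4 rose from 14.4 ± 0.695 to 57.7 ± 17.5 CPM, at 1.999 (SE 0.31, edgeR adjusted p = 0.00407), a call lost without GL261 replicate 2 (0.0529). Dusp5, a phosphatase of ERK, fell from 18.1 ± 5.05 to 2.08 ± 0.526 CPM, at -3.12 (SE 0.29, edgeR adjusted p = 0.000565).

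Spred1, a RAS inhibitor, fell at -0.64 (edgeR adjusted p = 0.00894), a call lost without GL261 replicate 1 (0.0956) or 2 (0.0831). The other 4 that rose, named after their values were seen, were Spry4 (1.56), Spry2 (1.51), Etv5 (0.93) and Spred2 (0.46). Of these, calls were lost without GL261 replicate 1 for Etv5 (0.137) and Spred2 (0.206), without GL261 replicate 2 for Spry2 (0.0914), Etv5 (0.201) and Spred2 (0.235), and without GL261-GSCs replicate 3 for Spred2 (0.0786). Dusp6, Dusp4 and Spry1 were not called, at -0.46, -0.39 and 0.40. The list thus held members in both directions.

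**Figure D4:**
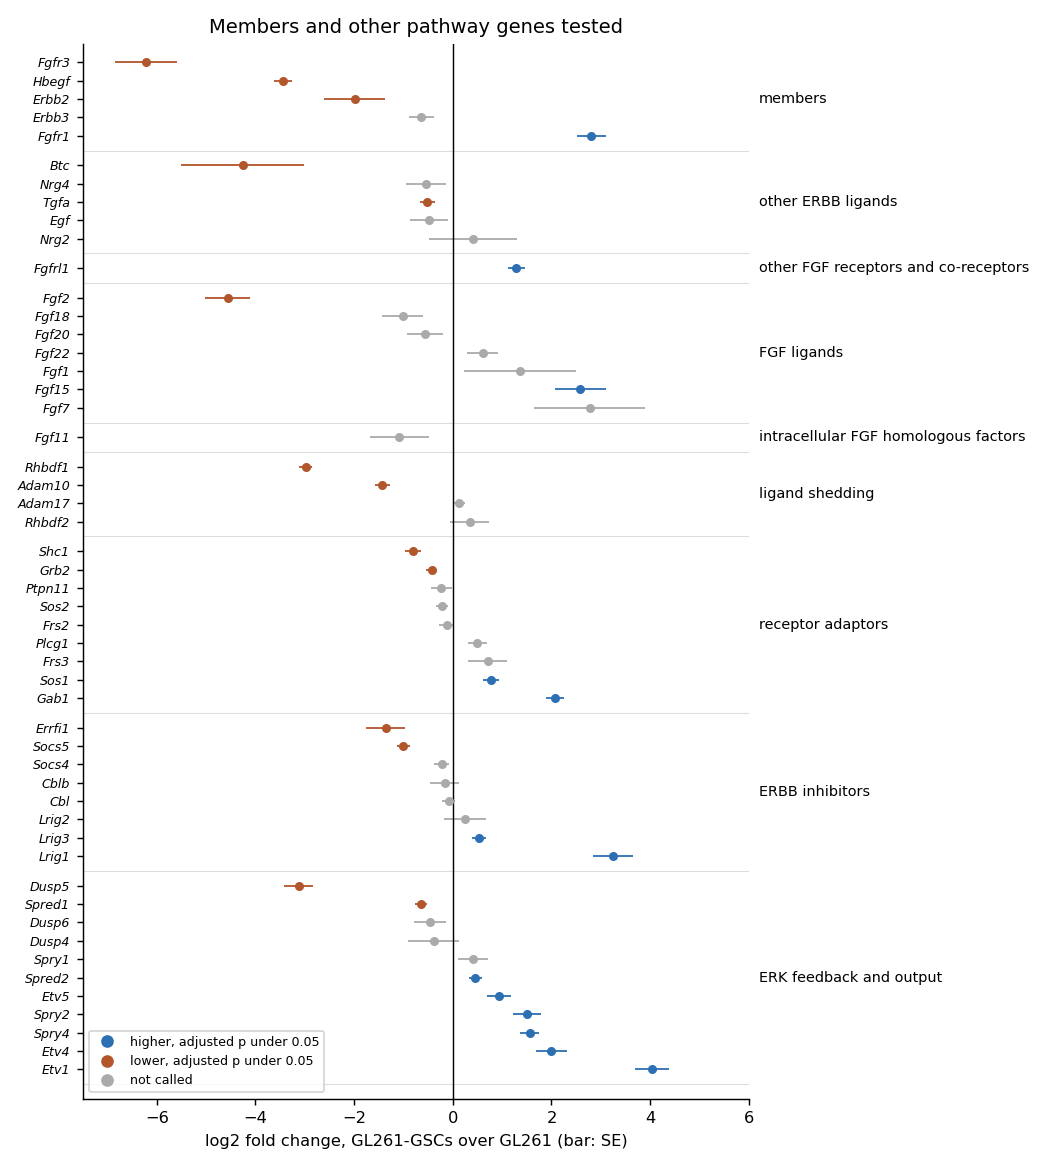
Log2 fold changes of GL261-GSCs over GL261, with SE bars, for the 5 tested members and the other tested pathway genes, grouped by list. Blue points are called higher, orange lower and grey not called. 2 tested genes with 3 or fewer UMIs in a group, Fgf23 and Fgf21, are left out, and the tallest rises and falls are Etv1 at 4.04 and Fgfr3 at -6.22.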

How the data were processed

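The authors deposited raw UMI counts for every gene in every barcode, without barcode filtering. Cell Ranger 4 made them, per the file headers, and the build was mm10, per the submitters' processing notes. No annotation release is named in the sources used here. Barcodes were called cells with at least 10% of the 99th percentile UMIs of the 3000 largest barcodes, at least 500 genes and under 10% mitochondrial UMIs. Doublets were not removed. The free RNA estimate came from near-empty barcodes (from 100 up to 1000 UMIs). UMIs were summed over the cells of each library, since cells are not replicates, and tested 2-sided with edgeR 4.0.16 (quasi-likelihood, TMM, filterByExpr, Benjamini-Hochberg over all genes) in R 4.3.3. CPM of single libraries and their means used TMM-scaled library sizes. CPM over a whole group, their intervals and limits, and bounds and ratios at few UMIs used summed UMIs without TMM scaling. An SE is the absolute log2 fold change divided by the square root of F. Cell classes were fitted with the library as a block. Shares of cells were compared by exact permutation in scipy 1.17.1, with exact binomial 95% intervals. Of the 54446 identifiers, 54409 (99.9%) matched GENCODE M21 on GRCm38, whose coordinates are given; promoter regions of 6 of the 9 members were in the RefSeq table.

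On simulated data for the comparison of groups, with 17991 genes and 198 changed by 2 on the log2 scale, edgeR recovered 158 in their true direction and made 10 false calls among 168. For the cell classes, with 14248 genes, it recovered 193 of 193 and made 7 false calls among 200. Both simulations gave every gene the same dispersion, set no differences among libraries of a group, and changed far fewer genes than were called in the data. Their rates of false calls therefore need not hold for the reported calls. Named genes are the 9 members, the 3 called genes with the largest change in each pathway list, those needed to name a count of 5 or fewer, called or not, and the 3 nearest genes of each called member. The 6 FGF ligands not called fall outside this rule and were chosen after their values were seen. The members, lists and rules were chosen with earlier results of these data known. Alternatives covered normalization, filters, DESeq2 1.42.0, limma 3.58.1, cell calling, thinning, the class threshold, the replicate block, each library left out and, added after seeing the data, GL261-GSCs replicates 1 and 2 or 3 and 4 left out.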

Additional observations from a re-analysis of the deposited data

Results flagged for a closer look

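Among 18 checks of the members for 1 library that stands apart in the 4 GL261-GSCs libraries (level and share of cells for each gene), 3 libraries stood apart from the others. Chance flags about 1 in 20 groups of continuous values, a rate that does not apply to these sparse counts: 1 library with a UMI among libraries at 0 is always flagged, and 4 libraries at 0 never are. Erbb4 had a UMI in 0.111% of thinned cells of GL261-GSCs replicate 4, that is 5 of 4512 cells, against 1 cell in replicate 3 and none in replicates 1 and 2. Fgfr2 reached 0.0303 CPM in GL261-GSCs replicate 1, from 2 UMIs, with none in the other libraries. Areg reached 0.0138 CPM in GL261-GSCs replicate 2, from 1 UMI, with none in the other GL261-GSCs libraries. All 3 rest on 5 or fewer UMIs or cells.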

How the results depend on the processing

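In the comparison of groups, 5514 genes were called. Leaving out 1 library gave 1817 to 6193 calls, with 1972 and 1817 without GL261 replicate 1 or 2, and leaving out GL261-GSCs replicates 1 and 2 gave 9881. Library size scaling alone called 5525 genes, 3491 higher and 2034 lower (63.2% higher, against 53% in the comparison as reported), and moved the median of all genes from 0.04 to 0.18. Members called stayed at 3 to 5. With a replicate block 6513 genes and 4 members were called, and Lrig3 (edgeR adjusted p = 0.0612) and Spred2 (0.0589) lost their calls. In that fit GL261-GSCs replicates 3 and 4, with no GL261 library of the same number, add nothing to the difference between groups. Whether the replicate numbers pair the libraries could not be told. Deviations from the group mean of same-numbered GL261 and GL261-GSCs libraries correlated at r = -0.0889 for number 1 and 0.132 for number 2 across 5423 genes. With 2 GL261 libraries, 1 deviates exactly opposite to the other, so these values cannot show whether a pairing exists. DESeq2 left Btc uncalled (adjusted p = 0.325), and library size scaling left Tgfa (0.125), Grb2 (0.0885) and Errfi1 (0.0507) uncalled. Without a filter on low counts Tgfa (0.0547), Grb2 (0.0833), Lrig3 (0.0948) and Spred2 (0.0833) were uncalled, and over all barcodes Btc (0.0636), Errfi1 (0.0579) and Lrig3 (0.0633).

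Between cell classes, 1 member was called with the top 10% of cells, and 1 to 2 with 1 library left out. The Hbegf value turned to 0.0556 and 0.0634 without GL261 replicate 1 or 2, in a range of -0.0958 to 0.0634 with 1 library left out. For the difference between groups, 36 genes and 0 members were called, against 446 genes and 2 members without a filter on low counts, and 0 to 145 genes and 0 to 2 members with 1 library left out. The Fgfr1 difference turned to -0.00838 without that filter, and to -0.395, -0.095 and -0.0787 without GL261 replicate 1 or GL261-GSCs replicate 1 or 2. That of Fgfr3 turned to 0.0119 and 0.308 without GL261-GSCs replicate 1 or 3. With 1 library left out these ranged from -0.395 to 0.37 and from -0.789 to 0.308. The cause was not tested in any of these, beyond the fewer libraries fitted. Erbb4, Egfr, Fgfr2 and Areg had too few UMIs for the main test, and the cause of their low counts was not tested.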
